A study of Homo sapiens with 6 samples.

Results

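The small nucleolar RNA host genes examined here are 9 long noncoding RNA genes, GAS5, SNHG1, SNHG3, SNHG5, SNHG6, SNHG7, SNHG8, SNHG12 and ZFAS1. They were chosen by gene symbol, with earlier results of these data known. Each of the 9 had a row among the 23228 gene rows of the count tables, 8 under the symbol itself and ZFAS1 under its older symbol ZNFX1-AS1. All 9 were also among the 12796 genes that passed the filter on low counts. The transcriptome was sequenced in MDA-MB-231, a human cell line established from a triple negative breast cancer (TNBC), to ask how gene expression changes upon knockdown of PELP1, a nuclear coregulator and proto-oncogene that also takes part in ribosome biogenesis. The control group is 3 replicates of MDA-MB-231 cells that stably express a non-targeted shRNA, and the PELP1-KD group is 3 replicates of the same line with a stable PELP1 shRNA. Both groups were made with lentiviral particles and puromycin selection and were grown in RPMI medium with FBS, and a single PELP1 shRNA was used, so that the shRNA sequence and the loss of PELP1 cannot be told apart. The sources do not say whether the replicates came from separate cultures or selections. The p-values therefore measure the spread between these libraries, which may be technical.

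Small nucleolar RNAs (snoRNAs) guide the chemical modification of ribosomal RNA in the nucleolus, box C/D snoRNAs directing ribose methylation and box H/ACA snoRNAs directing pseudouridylation. In human cells most of them are cut out of introns of a host transcript. Many host genes code for ribosomal proteins or translation factors, while the noncoding hosts make a spliced RNA that is often exported, met by ribosomes and removed by nonsense-mediated decay. Transcripts of several hosts begin with a terminal oligopyrimidine (TOP) run, the start that also marks mRNAs of ribosomal proteins and puts their translation and stability under control of mTOR signaling and LARP1.

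The starts of the host genes are shown first because this feature of their sequence was not used to choose them. Of the 9 genes, 8 had an entry in the RefSeq promoter table (GRCh38.p14), and SNHG6 had none. In 5 of these 8, a run of at least 5 pyrimidines that opened with C began within 5 bases before or after the annotated start. Sequences were read on the transcribed strand alone, and 21.1% of 35116 promoters held such a run. Each line gives the 10 bases before the start and the 20 bases that follow, with the pyrimidine run in capitals.
SNHG5: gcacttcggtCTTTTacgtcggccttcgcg
SNHG7: ccttctcgtCCTCTgcgtgcgccggaggct
SNHG8: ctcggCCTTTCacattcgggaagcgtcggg
SNHG12: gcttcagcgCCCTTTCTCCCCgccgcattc
ZFAS1: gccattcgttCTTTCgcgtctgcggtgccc
These windows lie at chr6:85678714-85678743 (minus strand), chr9:136728165-136728194 (minus), chr4:118278752-118278781 (plus), chr1:28581854-28581883 (minus) and chr20:49278632-49278661 (plus), respectively. In SNHG5 and ZFAS1 the run opens on the first transcribed base, and in SNHG7 and SNHG12 it opens 1 base before the start. The run of SNHG8, 6 bases long, opens 5 bases before the start, so most of it lies outside a transcript from that start. The run of SNHG12 is the longest of the 5, at 12 bases. GAS5, SNHG1 and SNHG3 had no such run in the window of the single RefSeq start, also when runs within 10 bases were admitted, a rule that 33.5% of all promoters met. GENCODE transcript sequences hold no bases before the start, so there only runs that opened in the first 5 transcribed bases were counted. By this narrower rule each of the 3 genes had a run at some transcript starts, 7 of 29 for GAS5, 2 of 25 for SNHG1 and 1 of 3 for SNHG3. The share was 8.77% over all 206694 transcripts and 8.0% for SNHG1. SNHG6 had such a run at 3 of 5 transcript starts. Of the 5 genes printed above, SNHG7 had it at 0 of its 4 GENCODE transcript starts, SNHG5 at 6 of 23, SNHG8 at 2 of 5, SNHG12 at 7 of 17 and ZFAS1 at 3 of 10. A match describes letters in a window and does not show which start MDA-MB-231 cells use.

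The counts on genes summed to between 17304864 and 23132102 per replicate. Alignments that were not unique were counted on no gene, and their row held between 32.5% and 32.9% of the sum of all rows of a replicate. Whether that row counts reads or alignments is not stated in the sources. The targeted gene PELP1 stood at 57.8 ± 2.14 counts per 1000000 counts (CPM) in the 3 control replicates and at 29.6 ± 0.876 CPM in the 3 PELP1-KD replicates (mean ± SD), which is a log2 fold change (log2FC) of -0.97 with a standard error of 0.055 and an edgeR adjusted p = 1.48e-11. Of markers that define the cell line, VIM was at 2221 CPM and CD44 at 1209 CPM in control cells, and 7 of the 8 listed were above 100 CPM there, while SPARC was at 5.02 CPM. The 8 genes summed to between 6682 and 6706 CPM in control and between 5608 and 5619 CPM in PELP1-KD replicates. At an edgeR adjusted p below 0.05, 6 of the 8 were lower in PELP1-KD cells. The other 2 were higher, FN1 with a log2FC of 0.38 and SPARC with 1.57. Over all tested genes 24.2% were lower and 22.7% were higher. Of the luminal markers ESR1, PGR and CDH1 were below 0.1 CPM and KRT8 was at 284 CPM, and the summed level of the 8 luminal markers ran from 300.3 to 312 CPM in control and from 279.6 to 285 CPM in PELP1-KD replicates. The 6 blood and endothelial markers summed to 0.296 to 0.676 CPM in control and 0.923 to 1.17 CPM in PELP1-KD replicates, with PTPRC at 0 in all of them. The part of these differences in the host gene results was not tested.

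Of the 9 host genes, 8 were downregulated in PELP1-KD cells. With edgeR's quasi-likelihood test and Benjamini-Hochberg adjustment over the 12796 tested genes, these 8 were lower at an adjusted p below 0.05, where 24.2% of all tested genes were lower and 22.7% were higher. Because the 9 genes were chosen with earlier results of these data known, their share set beside all genes is no independent test. The number of hosts that were higher was 0, also at an unadjusted p below 0.05, with DESeq2 and with limma. The median log2FC of the 9 genes was -0.24, beside 0.0014 over all tested genes. In the same 8 genes every control replicate lay above every PELP1-KD replicate, a separation that 55.0% of all tested genes showed in either direction and 28.0% showed in this direction. Scaling by library totals alone, without TMM, moved the split over all genes from 3103 lower and 2904 higher to 2418 lower and 3817 higher, and left 7 of the 9 hosts lower. The summed level of the 9 genes was 731, 745 and 758 CPM in control replicates 1, 2 and 3 and 633, 637 and 634 CPM in PELP1-KD replicates 1, 2 and 3, so the PELP1-KD mean was 14.8% lower. In bulk RNA, a lower level in every cell and fewer cells that express a gene cannot be told apart.

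**Figure D1:**
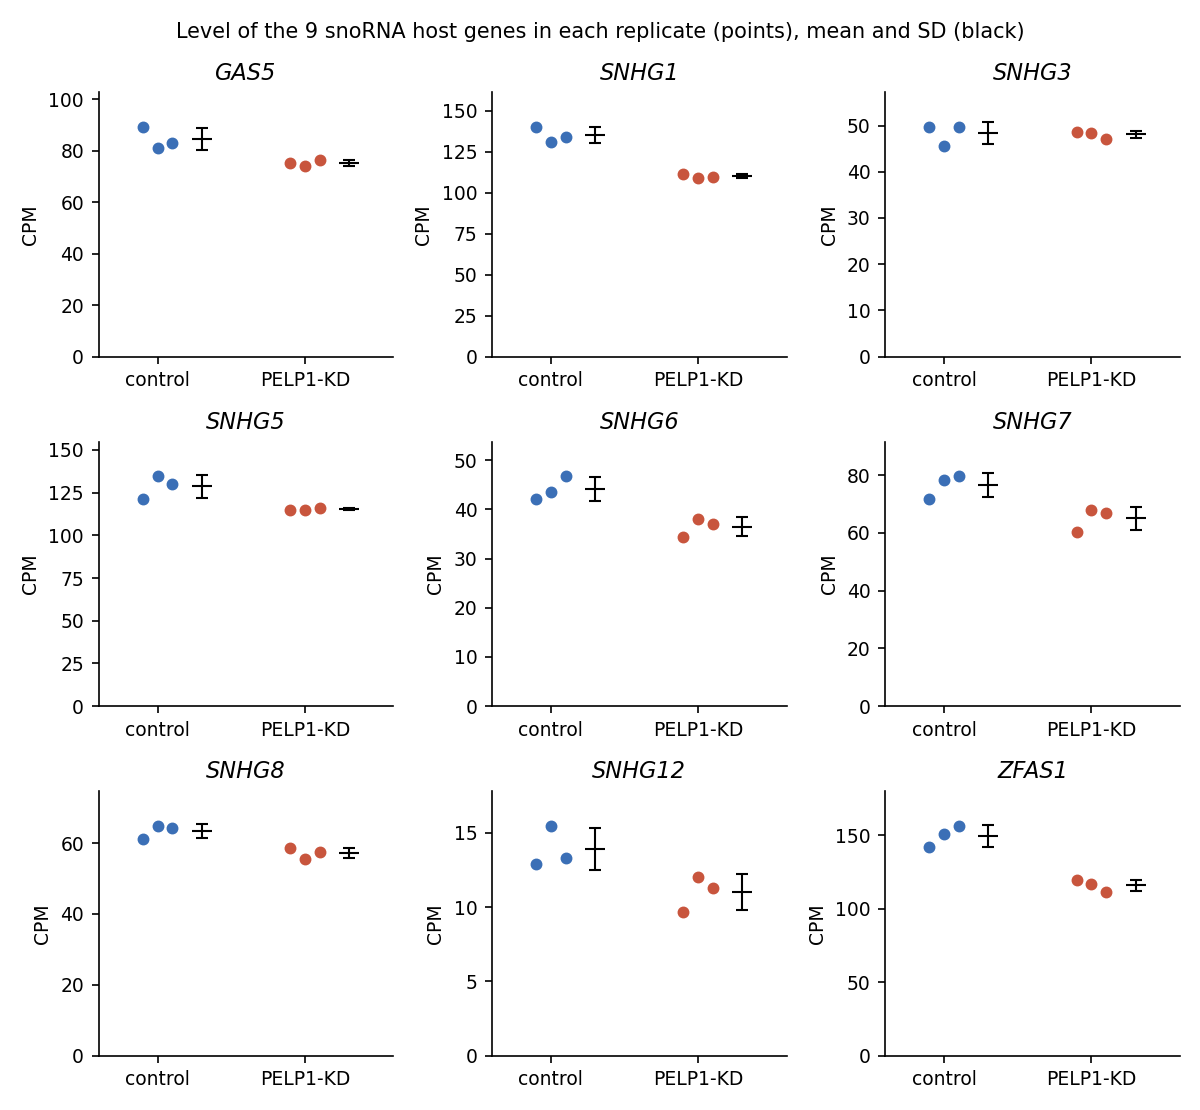
The y axis of each panel gives the level of a host gene in CPM, from 0, for the 3 control (blue) and 3 PELP1-KD (red) replicates as points, with the mean and SD in black. The control points sit above the PELP1-KD points in 8 of the 9 panels, and the groups overlap in the panel of SNHG3.

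GAS5 (chromosome 1, 173863900 to 173868882, minus strand, GENCODE 29 on GRCh38) is the host with the most snoRNAs, 10 of box C/D and 1 of box H/ACA in RefSeq, and its spliced RNA is known for accumulating when cell growth stops. Its level was 89.5, 81.2 and 83.1 CPM in control replicates 1, 2 and 3, from 1513, 1846 and 1475 counts, and 75.2, 74.2 and 76.3 CPM in PELP1-KD replicates 1, 2 and 3, from 1466, 1584 and 1796 counts. The lowest control replicate was above the highest PELP1-KD replicate. GAS5 was 11.0% lower in PELP1-KD cells, with a log2FC of -0.17 ± 0.047 (standard error; edgeR adjusted p = 0.00604).

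SNHG1 (chromosome 11, 62851988 to 62855914, minus strand) carries 8 box C/D snoRNAs in its introns and has a spliced RNA that is studied as an oncogenic lncRNA. The 3 control replicates stood at 140.3, 131 and 134 CPM and the 3 PELP1-KD replicates at 112, 109 and 109.8 CPM. The PELP1-KD replicates were close together, with an SD of 1.23 CPM, and all far below the control replicates. Its mean fell by 18.5%, with a log2FC of -0.29 ± 0.040 (edgeR adjusted p = 3.84e-06).

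SNHG5 (chromosome 6, 85660950 to 85678748, minus strand) is the host of SNORD50A and SNORD50B. Control replicates 1, 2 and 3 had 122, 135 and 129.9 CPM and PELP1-KD replicates 1, 2 and 3 had 115, 115 and 116 CPM. The groups did not overlap, although control replicate 1 lay nearer to the PELP1-KD values than the other control replicates did. The difference was 10.4%, with a log2FC of -0.16 ± 0.042 (edgeR adjusted p = 0.00372).

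SNHG6 (chromosome 8, minus strand) holds the single box C/D snoRNA SNORD87. Its control values were 42.0, 43.5 and 46.8 CPM and its PELP1-KD values were 34.3, 38.1 and 37.1 CPM. All control replicates were higher than all PELP1-KD replicates, and the mean was 17.2% lower in PELP1-KD cells. The log2FC was -0.27 ± 0.060 (edgeR adjusted p = 0.000866).

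ZFAS1 (chromosome 20, 49278178 to 49295738, plus strand) hosts 3 box C/D snoRNAs of the SNORD12 family and starts head to head with the protein-coding gene ZNFX1. It was measured at 142, 151 and 157 CPM in control and at 119, 117 and 112 CPM in PELP1-KD replicates. These were the most separated groups of the 9 genes by fold change, with a mean that was 22.6% lower. Its log2FC of -0.37 ± 0.043 (edgeR adjusted p = 4.97e-07) was lower than that of all but 8.93% of the tested genes.

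SNHG12 (chromosome 1, 28578538 to 28583132, minus strand) carries 1 box C/D and 3 box H/ACA snoRNAs. It had the fewest reads of the 9 genes, 218, 352 and 236 counts in control and 189, 257 and 265 counts in PELP1-KD replicates. This came to 12.9, 15.5 and 13.3 CPM in control and 9.70, 12.0 and 11.3 CPM in PELP1-KD cells. The groups stood apart by less than 1 CPM, between control replicate 1 and PELP1-KD replicate 2. The mean was 20.8% lower and the log2FC was -0.34, with the largest standard error of the 9, 0.099 (edgeR adjusted p = 0.00758). Without control replicate 2 the log2FC was -0.25 (edgeR adjusted p = 0.0724), and without PELP1-KD replicate 1 it was -0.26 (edgeR adjusted p = 0.0568).

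The other 3 host genes carry box H/ACA snoRNAs alone. SNHG7 (chromosome 9, 136721366 to 136728184, minus strand) was at 71.8, 78.3 and 79.7 CPM in control and 60.4, 67.9 and 66.8 CPM in PELP1-KD replicates, without overlap. Its mean was 15.1% lower, with a log2FC of -0.24 ± 0.054 (edgeR adjusted p = 0.0011). SNHG8 (chromosome 4, 118278709 to 118279823, plus strand), the host of SNORA24, was at 61.1, 65.0 and 64.3 CPM in control and 58.5, 55.6 and 57.4 CPM in PELP1-KD replicates. The groups again did not overlap, and SNHG8 had the smallest fall among the 8 genes, 9.90%, with a log2FC of -0.15 ± 0.049 (edgeR adjusted p = 0.0141). This call did not hold when library totals alone were used for scaling (edgeR adjusted p = 0.0876), nor without control replicate 2 (edgeR adjusted p = 0.0683) or PELP1-KD replicate 2 (edgeR adjusted p = 0.0553).

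SNHG3 (chromosome 1, 28505980 to 28510892, plus strand), a host of 2 box H/ACA snoRNAs, was the exception. Its replicates stood at 49.8, 45.6 and 49.8 CPM in control and at 48.7, 48.4 and 47.2 CPM in PELP1-KD cells, so that the PELP1-KD values lay inside the control range. The log2FC was -0.0068 ± 0.053, with a 95% interval from -0.11 to 0.098 (edgeR adjusted p = 0.927), and its sign turned with scaling by library totals, where it was 0.043, and without control replicate 1, control replicate 3 or PELP1-KD replicate 3. The interval leaves out the -0.15 of SNHG8, the smallest fall among the other hosts, but a difference between SNHG3 and the other genes was not tested. Exons of SNHG3 overlap those of RCC1 on the same strand over 242 bases, so reads there cannot be given to SNHG3 or RCC1 with certainty. RCC1, an exchange factor for the GTPase Ran, was at 195 ± 6.42 CPM in control and 206 ± 5.0 CPM in PELP1-KD cells (SD, n = 3; log2FC 0.08, edgeR adjusted p = 0.075).

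By the class of snoRNA they hold, all 6 genes with at least 1 box C/D snoRNA were lower, with log2FC from -0.37 to -0.16 and a median of -0.28. Of the 3 genes with box H/ACA snoRNAs alone, 2 were lower, and their median log2FC was -0.15. With 3 genes in the smaller class, the classes were not compared by a test. Over the 13 alternatives of scaling, test, filter, block and left-out replicate, GAS5, SNHG1, SNHG5, SNHG6, SNHG7 and ZFAS1 kept an adjusted p below 0.05 in all of them. The highest adjusted p in that set was 0.0428, for SNHG5 in edgeR without control replicate 2, and ZFAS1 stayed between -0.41 and -0.32 on the log2 scale.

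**Figure D2:**
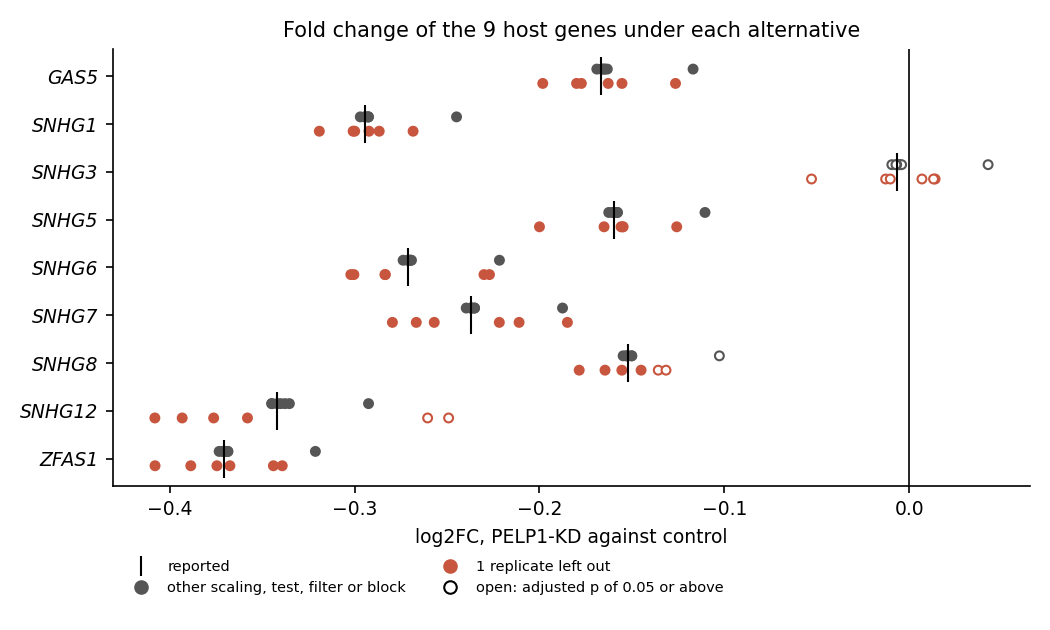
The x axis gives the log2FC of each host gene in PELP1-KD against control cells, with the reported value as a black bar, other scalings, tests, filters and the block in grey, and fits with 1 replicate left out in red, open where the adjusted p is 0.05 or above. Open points are seen for SNHG3 in every fit, for SNHG8 in 3 and for SNHG12 in 2, and the grey point to the right in each row is scaling by library totals.

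Levels of different genes were compared per length, as RPKM, the CPM value per kilobase of exon, with the union of GENCODE exons. In control cells SNHG8 was at 68.8 ± 2.21 RPKM and ZFAS1 at 66.7 ± 3.34 RPKM (SD, n = 3), a difference within the spread of the replicates. Next came SNHG5 at 45.9 ± 2.38 RPKM, then SNHG1 at 36.0 ± 1.25 and SNHG6 at 35.4 ± 1.95 RPKM, which again did not differ beyond their spread. GAS5 at 23.3 ± 1.19, SNHG7 at 17.6 ± 0.965, SNHG3 at 11.8 ± 0.593 and SNHG12 at 3.26 ± 0.328 RPKM followed, each below its neighbour by more than their SDs. In PELP1-KD cells SNHG8 was at 62.0 ± 1.56 RPKM and ZFAS1 at 51.6 ± 1.73 RPKM, so that these neighbours, within their spread in control cells, stood apart. The order of the upper 6 genes depends on the length used. With the length of the longest transcript ZFAS1 led at 139 RPKM, ahead of SNHG5 at 125 and SNHG8 at 94.4 RPKM, and GAS5 at 49.8 RPKM stood above SNHG1 at 48.8 RPKM. SNHG1 was the fourth by the union of exons, the sixth by the longest transcript and the third by the median transcript, whereas SNHG7, SNHG3 and SNHG12 were the lowest 3 with each length.

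Few of the other noncoding hosts passed the test, and those that did moved in both directions. Of 25 further noncoding snoRNA host genes listed, 14 had a row and 13 were tested, and 1 was lower and 2 were higher, with a median log2FC of -0.03. These shares are 7.69% and 15.4%, beside 24.2% lower and 22.7% higher over all tested genes. At an unadjusted p below 0.05 in edgeR, 3 of the 13 hosts were lower and 2 were higher. SNHG29, the most abundant of them at 585 CPM in control cells, fell by 0.10 on the log2 scale (edgeR adjusted p = 0.00551). SNHG11 rose by 0.38 (edgeR adjusted p = 0.0158) and SNHG17 by 0.16 (edgeR adjusted p = 0.0266). The log2FC of those that did not pass was -0.16 for SNHG9, -0.14 for EPB41L4A-AS1, -0.09 for SNHG16, -0.08 for SNHG4 and SNHG32, -0.03 for SNHG20, 0.02 for DANCR, 0.11 for SNHG15, 0.20 for SNHG10 and 0.33 for SNHG28. Some had few reads, with SNHG28, SNHG20, SNHG9 and SNHG11 below 6 CPM in control cells. Every control replicate lay above every PELP1-KD replicate in SNHG29, SNHG32 and SNHG16, and below every PELP1-KD replicate in SNHG11, SNHG15 and SNHG17. Over all tested genes 55.0% showed such a separation in either direction, and 28.0% showed it with lower PELP1-KD values. The number of other noncoding hosts that were lower was 0 with scaling by library totals, and the number that were higher was 0 with DESeq2. The 9 genes were chosen with such results known, and no test set them against the other hosts.

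**Figure D3:**
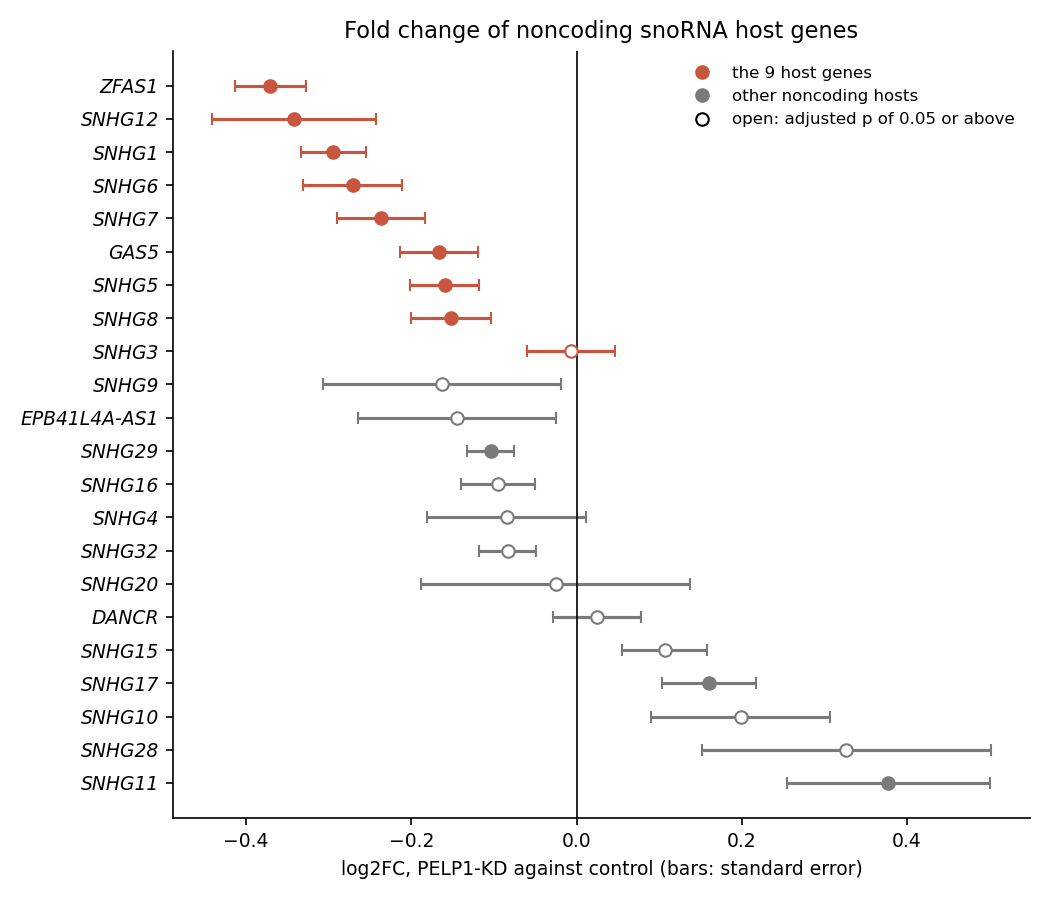
The x axis gives the log2FC of each noncoding host gene in PELP1-KD against control cells, with the standard error as a bar, for the 9 host genes (red) and 13 other noncoding hosts (grey), open where the edgeR adjusted p is 0.05 or above. The red points lie between -0.37 and -0.0068, whereas the grey points lie on both sides of 0, from -0.16 to 0.38.

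Among protein-coding hosts, those outside the ribosome were lower in 11 and higher in 2 of 22 tested genes, with a median log2FC of -0.10. Over all tested genes 24.2% were lower and 22.7% were higher. NCL, which codes for the nucleolar protein nucleolin, fell by 0.35, as did EIF4G2, a translation initiation factor, and HSPA9, a mitochondrial chaperone, fell by 0.22. TBRG4 rose by 0.11 and TNPO2, a nuclear import receptor, by 0.083 (edgeR adjusted p = 0.0142 and 0.0486). The number of these coding hosts that were higher was 1 with DESeq2, without a filter on low counts and with 10 counts in every replicate, 0 without control replicate 2 or PELP1-KD replicate 1, and 5 with library totals. Of 23 tested ribosomal protein genes listed as hosts, 13 were lower, among them RPL13A at -0.29, RPL27A at -0.19 and RPS3 at -0.16, and their median was -0.09. The number that were higher was 0 with edgeR, DESeq2 and limma, and 1 at an unadjusted p below 0.05. With DESeq2, 8 of these ribosomal protein hosts were lower, and with library totals 6 were. Ribosomal protein genes listed as no host were lower in 6 and higher in 2 of 54, with a median of -0.03. RefSeq nevertheless places a snoRNA inside at least 4 of the genes on that list, counting only snoRNAs with a row in the count tables. In this second list RPL22 (-0.35), RPL15 (-0.25) and RPL14 (-0.24) fell and RPL18 (0.13) rose, and library totals raised the number of higher genes to 10.

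**Figure D4:**
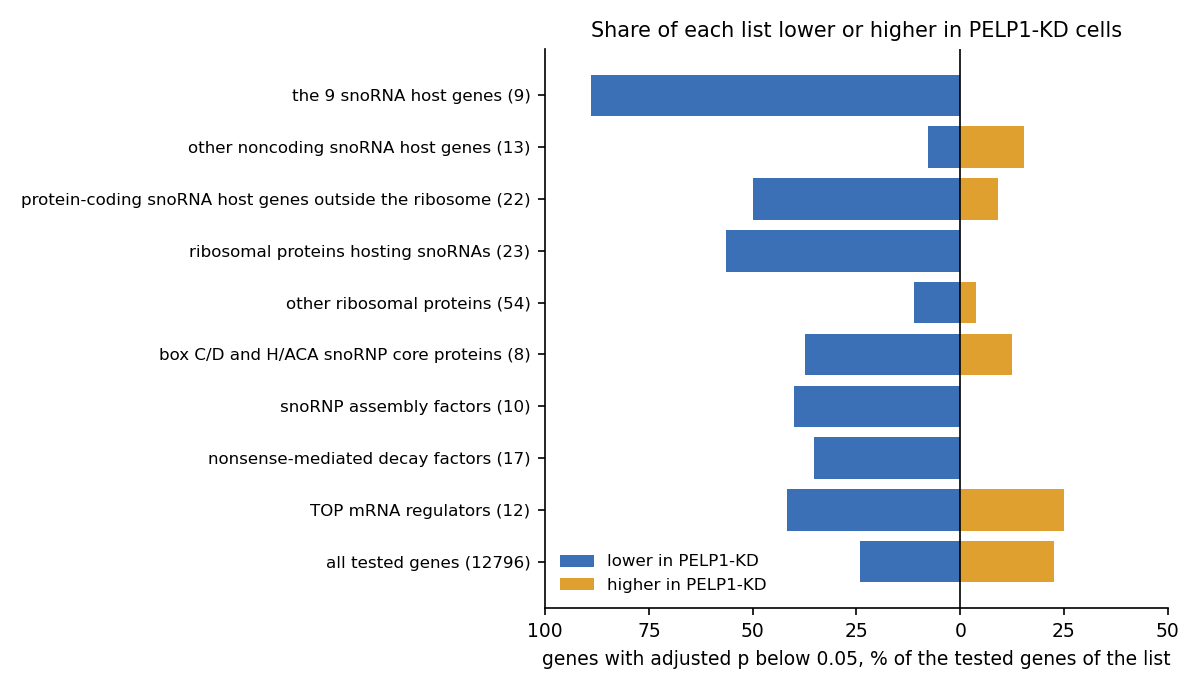
Bars to the left give the share of tested genes in each list that were lower in PELP1-KD cells, and bars to the right the share that were higher, in % at an edgeR adjusted p below 0.05, with the number tested in parentheses. The bar of the 9 host genes reaches 88.9% to the left, beside 24.2% for all tested genes.

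Proteins that act on the products of the host genes were also listed. Over all tested genes 24.2% were lower and 22.7% were higher, and none of these lists was tested against those shares. The list of core proteins of box C/D and box H/ACA snoRNPs held 8 genes, of which 3 were lower and 1 was higher. NOP56, a box C/D core protein and itself the product of a host gene, fell by 0.17, and the box H/ACA proteins DKC1, the pseudouridine synthase, and GAR1 fell by 0.12 and 0.14, while NOP10 of the same complex rose by 0.23. With library totals 1 of the 8 was lower and 2 were higher. Of 10 snoRNP assembly factors 4 were lower, RPAP3 at -0.33, NUFIP1 at -0.33, ZNHIT6 at -0.20 and NOLC1 at -0.18. The number of assembly factors that were higher was 0 with edgeR, DESeq2 and limma, 1 at an unadjusted p below 0.05 and 3 with library totals. The 17 factors of nonsense-mediated decay, the pathway that degrades many spliced host RNAs, held 6 that were lower, among them MAGOHB (-0.47), NBAS (-0.19) and the kinase SMG1 (-0.15). None of the 17 was higher with edgeR, DESeq2 or limma, or at an unadjusted p below 0.05. Regulators of TOP mRNAs moved in both directions, 5 lower and 3 higher of 12. TIA1 (-0.52), LARP4 (-0.33) and TIAL1 (-0.17), all RNA-binding proteins, were lower, and RPS6KB2 (0.32), EIF4EBP1 (0.19) and LARP1B (0.18) were higher.

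The host genes also hold rows of their snoRNAs, which are seldom captured by poly(A) libraries. RefSeq places 34 snoRNAs inside the 9 genes, 25 of box C/D and 9 of box H/ACA, and 31 of them had a row in the count tables. These rows summed to 32.9, 33.1 and 33.1 CPM in control replicates 1, 2 and 3 and to 24.4, 25.9 and 24.9 CPM in PELP1-KD replicates 1, 2 and 3, without overlap and 24.1% lower in PELP1-KD cells. The rows inside GAS5 summed to 16.3 ± 0.324 CPM over control replicates and to 12.7 ± 0.860 CPM over PELP1-KD replicates (mean ± SD), and those inside SNHG1 to 12.2 ± 0.30 and 9.07 ± 0.584 CPM. Rows inside GAS5 and SNHG1 were thus 21.8% and 25.4% lower, beside 11.0% and 18.5% for the host rows themselves. The difference between a host and its snoRNAs was not tested.

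Of the 31 snoRNA rows, 20 passed the filter on low counts, 19 of these had a negative log2FC, and 4 were lower at an edgeR adjusted p below 0.05, a share no higher than the 24.2% of all tested genes that were lower. These 4 rows, and SNORD29 beside them, were chosen for mention after their values were seen, and each of the 4 rests on 25 counts or fewer per replicate. SNORD74, inside GAS5, had 17, 19 and 15 counts in control and 8, 7 and 11 counts in PELP1-KD replicates (log2FC -1.13, edgeR adjusted p = 0.00776). Inside SNHG1, SNORD26 had 10, 16 and 16 counts in control and 2, 6 and 9 counts in PELP1-KD replicates (log2FC -1.45, edgeR adjusted p = 0.00711). SNORD31 (log2FC -1.10) and SNORD27 (log2FC -0.80) lie in the same host, while their neighbour SNORD29 was at 2.58 ± 0.135 CPM in control and 2.60 ± 0.280 CPM in PELP1-KD cells. The 2 snoRNA rows inside SNHG7 had 0 counts in every replicate, below a floor of 3 counts, which is 0.13 to 0.173 counts per 1000000.

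Reads on snoRNAs were also fewer outside the 9 host genes. The other 357 snoRNA and scaRNA rows summed to 59.6 ± 2.02 CPM over control replicates and to 50.5 ± 1.57 CPM over PELP1-KD replicates (mean ± SD), 15.4% lower. Of 37 tested among them 28 had a negative log2FC. At an edgeR adjusted p below 0.05, 3 were lower and 1 was higher. Over all tested genes, 24.2% were lower and 22.7% were higher. The median log2FC of the 37 rows was -0.33, beside -0.47 for the 20 tested rows inside the 9 host genes and 0.0014 over all tested genes. Rows of replication-dependent histones, another class of RNA without a poly(A) tail, overlapped between the groups when scaled by library totals without TMM, at 61.1, 65.0 and 62.0 counts per 1000000 in control and 58.6, 68.6 and 58.8 in PELP1-KD replicates. On that same scale all 388 snoRNA and scaRNA rows, those inside the 9 host genes included, stood at 88.6, 93.4 and 91.2 in control and 77.8, 76.3 and 76.4 in PELP1-KD replicates, without overlap. Whether the snoRNA rows count mature snoRNAs or unspliced host RNA was not tested.

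**Figure D5:**
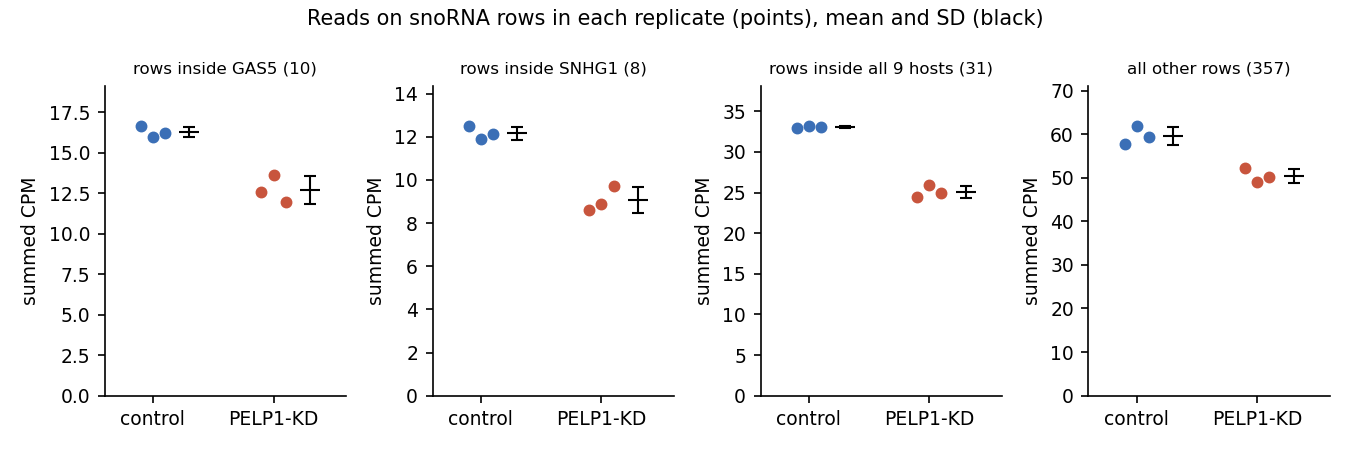
The y axis gives summed CPM from 0 for snoRNA rows inside GAS5, inside SNHG1, inside all 9 host genes and for all other snoRNA and scaRNA rows, with the number of rows in parentheses, replicates as points and the mean and SD in black. PELP1-KD replicates lie below control replicates in each panel, at 25.1 CPM against 33.1 CPM on average for the rows inside the 9 host genes.

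Genes that share a start region or exons with a host bear on these counts, since the libraries were stranded but the strand setting of the counting is not given in the sources used here. ZNFX1 starts 248 bases from ZFAS1 on the other strand and overlaps its exons over 249 bases. It was at 108, 104 and 102 CPM in control and 117, 119.8 and 113 CPM in PELP1-KD replicates, and so rose by 0.15 (edgeR adjusted p = 0.00405) where ZFAS1 fell. SLC3A2, an amino acid transporter subunit whose start lies 188 bases from that of SNHG1, went the way of its neighbour, with a log2FC of -0.11 (edgeR adjusted p = 0.00797). FAM69B overlaps SNHG7 over 1094 bases of exon on the other strand and rose from 3.96 ± 0.202 to 8.21 ± 0.466 CPM (SD, n = 3; edgeR adjusted p = 3.81e-07), while SNHG7 fell from 76.6 to 65.0 CPM. ZBTB37, which starts 800 bases from GAS5, had a log2FC of 0.27 (edgeR adjusted p = 0.192), and TRNAU1AP, which overlaps SNHG12 over 8 bases, had 0.13 (edgeR adjusted p = 0.19). GAS5-AS1 and the partner of SNHG6, MCMDC2, had at most 6 counts in any replicate.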

How the data were processed

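RNA-seq of 3 control and 3 PELP1-KD replicates of MDA-MB-231 cells was examined. The authors prepared stranded mRNA libraries, sequenced single reads of 50 bases and deposited whole-number counts per gene symbol for each replicate, without normalization. The submitters' processing notes name bcl2fastq, TopHat2, SAMtools, HTSeq and hg19, without versions. The annotation and the strand setting of the counting are not given in the sources used here. The authors tested their counts with DESeq2.

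Closing rows (no feature, ambiguous, not unique) were left out of library sizes. Genes that passed filterByExpr (minimum 10 counts) were tested with edgeR 4.0.16 (R 4.3.3) by the quasi-likelihood test after TMM scaling, with Benjamini-Hochberg adjustment over 12796 genes, called at 0.05. The standard error was derived from each log2FC and its F statistic, and the interval is a normal 95% interval. CPM values are counts per 1000000 of TMM-scaled library size, where counts on genes of 17304864 to 23132102 set the precision, and floors cover counting error alone. Lengths and positions came from GENCODE 29 (GRCh38), not hg19, with rows matched by symbol, and sequences and hosted snoRNAs from RefSeq (GRCh38.p14).

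On simulated data for 3 control against 3 PELP1-KD replicates with 12700 genes tested, 76 of 100 genes changed by a log2FC of 0.3 and 100 of 100 changed by 1 were recovered, and 10 of 12500 unchanged genes were called. Alternatives were RLE factors, library totals, DESeq2 1.42.0, voom with limma 3.58.1, other filters, a replicate block, each replicate left out and other gene lengths, the median transcript length having been added after the data were seen. All members, tested noncoding hosts, PELP1, neighbours and the 3 genes of lowest p in each direction of every other list are named, unless stated. A few genes that this rule covers are not reported here. The host genes and all lists were chosen with earlier results of these data known. Lists were written from general knowledge. Proteomics was not analysed here.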

Additional observations from a re-analysis of the deposited data

Results flagged for a closer look

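Reads that fall in no tested gene row were examined because they stand outside the comparison of genes. Reads on no annotated gene made up 8.06% ± 0.154 of the sum of all rows in PELP1-KD replicates and 7.75% ± 0.102 in control replicates (SD, n = 3). Reads on more than 1 gene made up 0.684% ± 0.00339 in PELP1-KD and 0.66% ± 0.00399 in control replicates (SD, n = 3). Whether reads in exons that SNHG3 or ZFAS1 shares with a neighbour are among them was not tested. The annotation and the strand setting of the counting are not given in the sources used here. Both shares had a higher mean in PELP1-KD cells, and neither was set against the host genes by a test. With 3 replicates in a group, single replicates were not examined as outlying.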

How the results depend on the processing

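The number of the 9 host genes called lower was 7 with library totals, 8 with each other scaling, test, filter and the block, and 6 to 8 with 1 replicate left out, 6 being without control replicate 2. SNHG3 had a log2FC of 0.043 with library totals and -0.053 to 0.014 with 1 replicate left out. With library totals, 0 other noncoding hosts were lower, 5 coding hosts higher, ribosomal protein hosts 6 lower and 1 higher, other ribosomal proteins 10 higher, snoRNP core proteins 1 lower and 2 higher, and assembly factors 3 higher. DESeq2 gave 0 other noncoding hosts higher, 1 coding host higher and 8 ribosomal protein hosts lower. Without a filter on low counts 1 coding host, 1 ribosomal protein host and 4 other ribosomal proteins were higher, and with 10 counts in every replicate 2 other noncoding hosts were lower and 1 coding host higher. The cause of these moves was not tested. Deviations of same-numbered replicates correlated at 0.039, 0.065 and -0.078. With 3 replicates in a group these values cannot settle whether replicate numbers pair the libraries. The replicate block gave 3335 genes lower and 3140 higher over all tested genes. With the block 2 other noncoding hosts were lower, and 1 ribosomal protein host, 4 other ribosomal proteins and 1 assembly factor were higher.

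With 1 replicate left out, other noncoding hosts were lower in 1 to 2 (2 without control replicate 1) and higher in 0 to 2 (0 without control replicate 2 or PELP1-KD replicate 3), and coding hosts were higher in 0 to 2 (0 without control replicate 2 or PELP1-KD replicate 1). Ribosomal protein hosts were lower in 6 to 15 (6 without PELP1-KD replicate 1, 8 without control replicate 2 or 3) and higher in 0 to 1 (1 without control replicate 2 or 3). Other ribosomal proteins were lower in 6 to 15 (15 without control replicate 1) and higher in 1 to 5 (1 without control replicate 1 or PELP1-KD replicate 2, 5 without control replicate 3), and assembly factors were higher in 0 to 1 (1 without PELP1-KD replicate 2). PELP1 stayed between -0.99 and -0.94. Low counts limit the precision for SNHG12 and the snoRNA rows. Length-scaled levels moved with the length used for all 9 genes.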
